A study of Mus musculus with 69 samples.

Results

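The comparison set basal bone marrow-derived macrophages (BMDMs) of NOD/ShiLtJ mice (NOD) against those of BALB/cJ mice (BALB). Its members were the basal libraries of both strains in the authors' table of 5 strains, 3 of NOD and 3 of BALB, which is 6 of the 29 samples in that table and of the 69 samples in the series. The study compared BMDMs of genetically distinct mouse strains without and with IL-4. The mice were female and aged 8 to 12 weeks. Their bone marrow was cultured for 7 days with M-CSF, which came at first from medium conditioned by L929 cells and later also as added mouse M-CSF, and the labels name no transgene or engineered allele in either strain. Basal cells were left untreated. Poly(A) RNA was sequenced, and expression is given in TPM, a unit that scales reads by transcript length and library total. The study's methods call the libraries biological replicates, and the labels number them without naming the mouse or culture of each. The p-values and standard errors (SE) therefore measure the spread between libraries. This spread was estimated within the 10 groups of all 29 libraries in the table, not from the 6 basal libraries alone.

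Macrophages grown from bone marrow with M-CSF are adherent phagocytes that carry pattern-recognition receptors, Fc receptors and complement receptors, present antigen on MHC molecules, and secrete chemokines and cytokines when stimulated. NOD mice develop autoimmune diabetes spontaneously and carry an unusual MHC haplotype, while BALB mice are often used as a strain with a strong type 2 response. Both are inbred, so a strain is a single genotype, and a difference between the strains cannot be assigned to one locus by this design.

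The question was which genes differed between the strains before any IL-4 was given. NOD BMDMs had higher mRNA levels of many chemokines and interferon-stimulated genes, and lower levels of most cholesterol synthesis genes, of several MHC class II genes, of several pattern-recognition and complement receptors and of several proteases. Of 11907 genes tested, 576 were higher in NOD (4.84% of genes tested) and 1568 were lower (13.2%). A call needed a difference above 2-fold and a limma p below 0.05 after Benjamini-Hochberg adjustment over all genes tested. The difference was taken between means of log2(TPM + 1), NOD minus BALB, which understates the change of genes with low values. A difference of more than 4-fold was found for 144 higher and 174 lower genes. The NOD and BALB libraries did not overlap in 572 of the 576 higher and 1559 of the 1568 lower genes. Non-overlap was therefore usual among called genes and does not set a named gene apart.

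The balance between higher and lower genes depended on how the libraries were scaled. With the TPM as deposited, the median difference over all genes tested was -0.33 on the log2 scale, and 26.9% of the called genes were higher in NOD. After each library was rescaled by its median ratio to the mean profile, the median difference was 0.0014, with 1112 genes higher (9.34%) and 683 lower (5.74%), so that 62.0% of the called genes were higher. Calls made in the same direction under all 3 scalings (as deposited, median-ratio and quantile) numbered 570 higher (4.79%) and 619 lower genes (5.2%). Counts below are given for the TPM as deposited, with the count under all 3 scalings beside them, and differences of named genes are as deposited unless stated. The median of a gene list is to be read against -0.33 as deposited and 0.0014 after median-ratio scaling. A count in a gene list is to be read against 4.84% higher and 13.2% lower of all genes tested as deposited. Under all 3 scalings these shares were 4.79% and 5.2%.

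**Figure D1:**
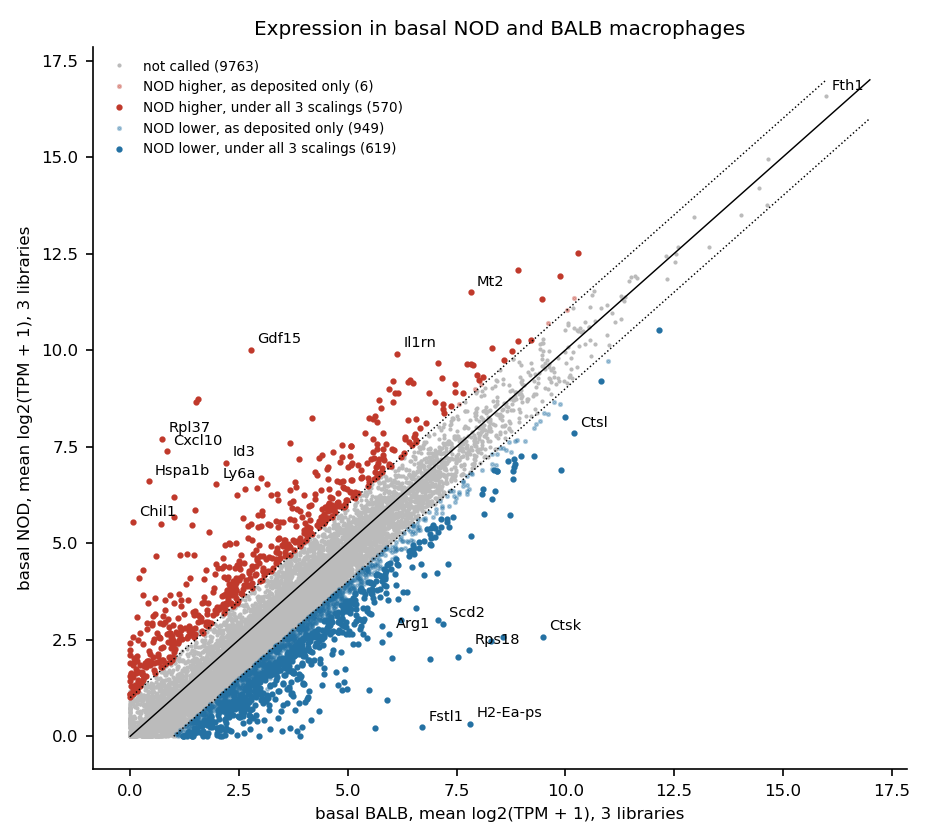
Mean log2(TPM + 1) of the 11907 genes tested in basal BALB (horizontal) and basal NOD (vertical), 3 libraries each. Dark points are genes called under all 3 scalings (570 higher, 619 lower), pale points are genes called only with the TPM as deposited, grey points are not called, the solid line marks equal levels and the dotted lines a difference of 2-fold. The cloud lies slightly below the solid line, and most pale points are on the NOD lower side.

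Library depth was 11.005, 14.008 and 11.476 M tags in NOD and 17.354, 18.962 and 13.793 M tags in BALB. Pearson r across genes was 0.993 to 0.994 between NOD libraries, 0.993 to 0.996 between BALB libraries, and 0.917 to 0.929 between libraries of different strains. Genes with high values took a different share of the total in the strains. Fth1, the ferritin heavy chain that stores iron, stood at 105197, 96541 and 90389.6 TPM in NOD and 63953, 66026 and 65035 TPM in BALB, which was 14.7% and 9.93% of the TPM of all listed genes. The difference also moved with transcript length. Its median was 0.00 in the tenth of genes with the shortest transcripts (up to 935 bases) and -0.48 in the ninth length decile (4449 to 5762 bases), and after median-ratio scaling it still went from 0.26 to -0.15. BALB replicate 1 had the largest length trend, with a median deviation of 0.359 in the longest decile. The part of length in any result was not tested. Centring each library within length deciles left 969 higher and 685 lower genes.

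**Figure D2:**
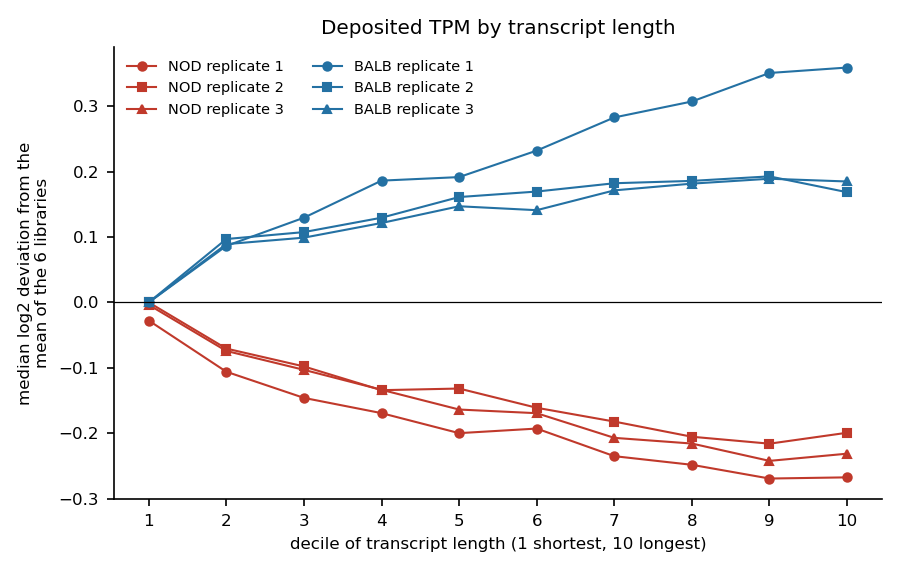
Median deviation of each basal library from the mean of the 6 libraries (vertical, log2 scale, TPM as deposited) in 10 length deciles of the genes tested (horizontal). The NOD libraries fall and the BALB libraries rise with transcript length, and BALB replicate 1 reaches 0.359 in the longest decile.

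The cells of both strains carried the markers of macrophages. The summed level of 8 macrophage markers was 19020 to 20008 TPM in NOD and 29697 to 30790 TPM in BALB, most of it from Lyz2, the lysozyme of myeloid cells. Cd68, a lysosomal glycoprotein of macrophages, differed by 0.31 ± 0.05 and Adgre1, which encodes F4/80, by -0.92 ± 0.07, and neither was called. Csf1r, the receptor for M-CSF, was lower in NOD (-1.26 ± 0.05), though its difference after median-ratio scaling, -0.80, was within 2-fold. Itgam, the CD11b integrin chain, was lower under all 3 scalings, and Fcgr1, which encodes CD64, was higher. Markers of lymphoid, erythroid and mast cells were near 0, while those listed for dendritic cells and osteoclasts were not. Summed over 5 genes, B cell markers reached at most 0.532 TPM in NOD and 2.69 TPM in BALB, and 7 markers of T and NK cells at most 0.151 and 0.457 TPM. The 9 erythroid and megakaryocyte markers reached at most 0.843 TPM in NOD and 2.24 TPM in BALB, and 4 of them were listed at 0 in all 6 libraries. Mast cell and basophil markers summed to 1.47 to 2.68 TPM in NOD and 4.76 to 7.38 TPM in BALB. Granulocyte markers summed to 46.5 to 58.7 TPM in NOD and 91.9 to 95.1 TPM in BALB, of which S100a8 (49.3, 38.0 and 47.2 TPM against 48.8, 56.7 and 53.2 TPM) and the collagenase Mmp8 made up most. Fibroblast markers summed to 15.5 to 17.8 TPM in NOD and 7.91 to 9.50 TPM in BALB, mostly the proteoglycan Dcn, which was higher in NOD (1.85 ± 0.10). Of the 4 fibroblast markers tested, 1 was higher and 1 lower, both under all 3 scalings, and the median difference was -0.031. Monocyte markers summed to 6.36 to 8.40 TPM in NOD and 16.2 to 18.9 TPM in BALB. Most of the BALB sum was from Chil3, which is described with the alternative activation genes. Of the 4 monocyte markers tested, 2 were lower and 0 higher. Dendritic cell markers summed to 2060.0 to 2138 TPM in NOD and 961 to 1136 TPM in BALB, nearly all from Bst2, which interferon also induces. Osteoclast markers summed to 526 to 572 TPM in NOD and 1092 to 1147 TPM in BALB, mostly from Acp5 and Ctsk, which are described with the lysosomal genes. The part of other cells in the results was not tested. In bulk RNA, fewer cells of a type and less RNA per cell cannot be told apart.

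Among the genes furthest above BALB in NOD was Gdf15, a cytokine of the TGF-beta superfamily that rises in stressed cells (chromosome 8, 70629393 to 70632095, mm10). It stood at 1255, 1029 and 847 TPM in the NOD libraries and 3.51, 6.06 and 8.91 TPM in the BALB libraries. The strains lay far apart, and the difference was 7.24 ± 0.24 (SE, n = 3 in each strain, adjusted p = 1.8e-18, limma with Benjamini-Hochberg adjustment). Non-overlap of the libraries was a condition for naming the genes furthest apart. The paralogs Hspa1a and Hspa1b, inducible HSP70 chaperones whose near-identical sequences can trade reads, went the same way. Hspa1b stood at 114, 88.4 and 88.1 TPM in NOD and 0.24, 0.33 and 0.46 TPM in BALB (6.18 ± 0.19), and Hspa1a differed by 5.18 ± 0.17. Hspa1a averaged 1.02 TPM in BALB. Chil1, a chitinase-like lectin, was at 44.3, 46.8 and 45.6 TPM in NOD and 0.045, 0 and 0.11 TPM in BALB (5.47 ± 0.14). Id3, an inhibitor of basic helix-loop-helix factors, was at 136, 126 and 142 TPM against 2.79, 4.01 and 4.15 TPM (4.88 ± 0.14). Ly6a, the gene of the surface protein Sca-1, differed by 4.56 ± 0.14, and Atp5g2, a gene for subunit c of the ATP synthase, by 4.80 ± 0.16.

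Other stress genes were looked up after the values of Gdf15 and the chaperones had been seen, so their choice is not independent. Ddit3, which encodes the transcription factor CHOP, was at 452, 486 and 487 TPM in NOD and 68.0, 72.2 and 70.4 TPM in BALB (2.74 ± 0.08). Trib3, a pseudokinase that CHOP induces, differed by 2.73 ± 0.12, and Sqstm1, the autophagy receptor p62, by 1.86 ± 0.04. The metallothioneins, small proteins that bind zinc and copper, were among the genes with the highest levels on this side. Mt2 was at 2838, 2916 and 2913 TPM in NOD and 197, 242 and 239 TPM in BALB (3.68 ± 0.13), and Mt1 differed by 3.16 ± 0.12. All of these were called under all 3 scalings. The heme oxygenase gene Hmox1 stood at 2140.1, 2237 and 2155 TPM in NOD and 1188, 1162 and 1118 TPM in BALB, a difference of 0.91 ± 0.04 that did not reach 2-fold as deposited and did after median-ratio scaling (1.38).

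Among the genes furthest below BALB were H2-Ea-ps and Ctsk. H2-Ea-ps is the name in this annotation for the gene of the MHC class II E alpha chain, which is known to be silent in several MHC haplotypes (chromosome 17, 34342212 to 34344645). It stood at 0.41, 0.11 and 0.27 TPM in NOD and 232, 216 and 221 TPM in BALB (-7.48 ± 0.14, adjusted p = 2.2e-23, limma with Benjamini-Hochberg adjustment). Basal C57BL/6J (C57) macrophages, with a mean of 0.77 TPM, were also near 0. Ctsk, which encodes the collagen-degrading protease cathepsin K (chromosome 3, 95499210 to 95509387), was at 4.38, 4.08 and 6.82 TPM in NOD against 746, 706 and 699 TPM in BALB (-6.91 ± 0.09). Fstl1, a secreted follistatin-like glycoprotein, was at 0.27, 0.19 and 0.086 TPM against 110.3, 101 and 99.6 TPM (-6.47 ± 0.08). Tifab, an inhibitor of TIFA and TRAF6 signalling, differed by -4.96 ± 0.13, Guca1a, a guanylate cyclase activator best known from photoreceptors, by -4.29 ± 0.19, and Scd2, a stearoyl-CoA desaturase, by -4.26 ± 0.10. In each of these genes the highest NOD library was well below the lowest BALB library, and the rule that named them required non-overlap.

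Several ribosomal protein genes were near 0 in one strain and abundant in the other. Rpl26 stood at 382, 397 and 438 TPM in NOD and 1.83, 1.61 and 2.21 TPM in BALB, and Rpl37 at 193, 216 and 217 TPM and 0.61, 0.62 and 0.74 TPM. The reverse held for Rpl34 (5.68, 4.70 and 3.40 TPM in NOD, 323, 309 and 311 TPM in BALB), Rps18 (-5.54 ± 0.09), Rpl28 (-5.47 ± 0.23) and Rps16 (-4.88 ± 0.17). These genes have near-identical processed copies elsewhere in the genome, and the counting could assign their reads differently in the 2 strain genomes, so their levels are uncertain. Gm15772 overlaps Rpl26, and Rpl34-ps1 overlaps Rpl34, so the members of a pair are not separate signals. Of 88 ribosomal protein genes tested, a family looked up after these values had been seen, 10 were higher and 5 lower, with the same counts under all 3 scalings, and the median difference was 0.26.

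**Figure D3:**
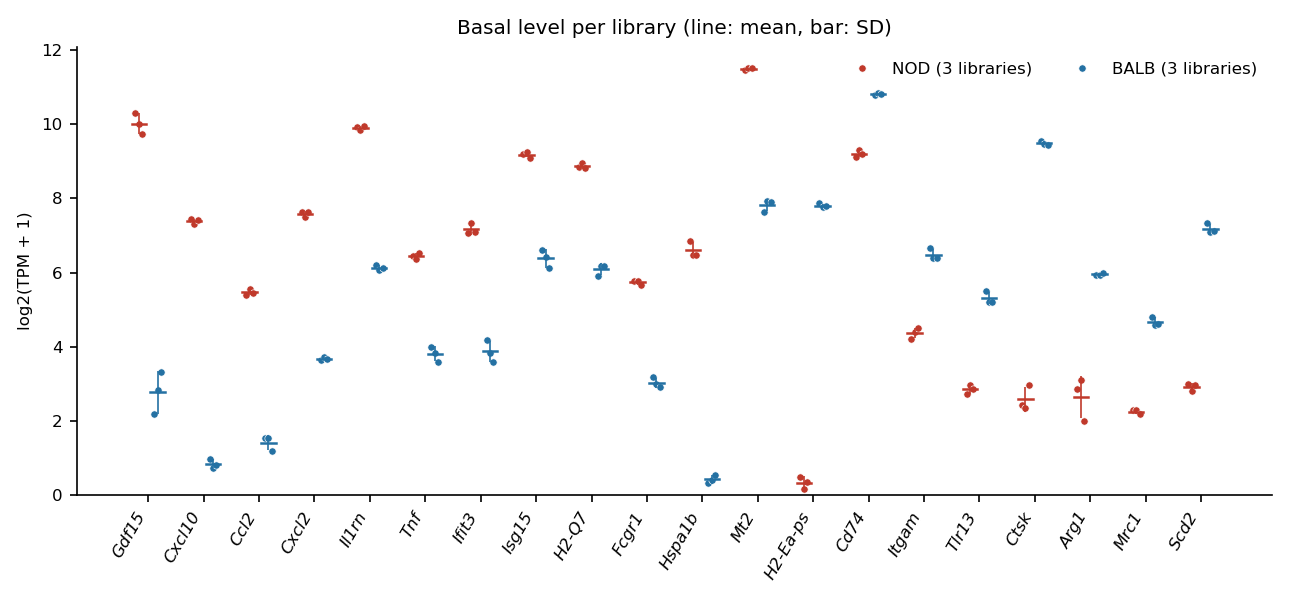
Level of 20 named genes in each basal library (vertical, log2(TPM + 1)), NOD in red and BALB in blue, with the mean as a line and the SD as a bar. The 12 genes on the left, from Gdf15 to Mt2, are higher in NOD. The 8 genes on the right, from H2-Ea-ps to Scd2, are lower. The libraries of the strains overlap in none of these 20, as in nearly all called genes (572 of 576 higher, 1559 of 1568 lower).

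Chemokines were the list with the highest median difference. Of 23 tested, 13 were higher in NOD and 2 were lower (13 and 1 under all 3 scalings), and the median difference was 1.19 as deposited and 1.60 after median-ratio scaling. Cxcl10, a ligand of CXCR3 that interferon induces, was at 172, 159 and 169 TPM in NOD and 0.97, 0.67 and 0.75 TPM in BALB (6.55 ± 0.11). Art3 overlaps it on the other strand, and whether the counting used strand is not given in the sources used here. The ligands of CCR2 were high together in NOD. Ccl7 stood at 51.5, 51.2 and 49.0 TPM against 1.33, 0.84 and 0.92 TPM (4.67 ± 0.09), Ccl2 at 41.1, 46.0 and 42.5 TPM against 1.88, 1.92 and 1.26 TPM (4.05 ± 0.18), and Ccl12 differed by 2.60 ± 0.15. The neutrophil attractants Cxcl2 (199, 178 and 196 TPM against 11.5, 12.3 and 11.6 TPM, 3.91 ± 0.08) and Cxcl1 (3.51 ± 0.16) were higher as well. The chemokines Ccl3, Ccl4 and Ccl5 differed by 2.66 ± 0.08, 2.64 ± 0.07 and 2.21 ± 0.07. The platelet basic protein gene Ppbp was lower (-2.08 ± 0.21) and so was Ccl8 (-1.18 ± 0.13), the latter not under all 3 scalings (-0.74 after median-ratio scaling). The type 2 chemokine Ccl17 was listed at 0 TPM in all 6 basal libraries.

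Of 9 chemokine receptors tested, 1 was higher and 3 were lower (1 and 1 under all 3 scalings). Ccrl2, an atypical receptor that binds chemerin, was at 617, 597 and 653 TPM in NOD and 149, 141 and 135 TPM in BALB (2.13 ± 0.07). Ccr2, the receptor of monocytes for CCL2, was at 0.059, 0.047 and 0.12 TPM and 1.43, 1.54 and 1.56 TPM (-1.23 ± 0.09). The difference of Cx3cr1, the fractalkine receptor, was -1.22 ± 0.09 as deposited.

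In the IL-1 and inflammasome list, 3 of 23 genes were higher and 3 lower (3 and 2 under all 3 scalings). The lower count as deposited was near the share of all genes tested (13.2%). Il1rn, which encodes the secreted antagonist of the IL-1 receptor, stood out with 966, 928 and 984 TPM in NOD and 72.6, 66.3 and 68.3 TPM in BALB (3.78 ± 0.07). Il1a differed by 1.45 ± 0.08 and the IL-18 binding protein gene Il18bp by 1.07 ± 0.08, while Il1b, at 43.5, 38.0 and 50.9 TPM and 25.4, 24.6 and 24.9 TPM, differed by 0.79 ± 0.10 and was not called as deposited. The sensor genes Nlrp1b (-1.51 ± 0.08) and Mefv (-1.45 ± 0.12) were lower, and the receptor gene Il1r1 was lower as deposited only (-1.10 ± 0.12). Nlrp3 was not called (-0.10 ± 0.09), nor was Casp1 (0.26 ± 0.08). Among cytokines outside the lists, chosen after their values had been seen, Tnf was at 85.6, 81.6 and 91.5 TPM in NOD and 14.9, 13.3 and 11.03 TPM in BALB (2.64 ± 0.12), Il6 differed by 2.37 ± 0.16, and Inhba, the gene of the activin A subunit, by 4.07 ± 0.08.

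Interferon-stimulated antiviral genes were mostly higher in NOD. Of 39 tested, 23 were higher and 2 lower (22 and 1 under all 3 scalings), and the median difference was 1.05 as deposited and 1.51 after median-ratio scaling. Ifit3, a protein that binds viral RNA complexes, was at 134, 161 and 135 TPM in NOD and 17.1, 13.3 and 11.1 TPM in BALB (3.30 ± 0.14). Rsad2, the antiviral enzyme viperin, was at 413, 442 and 399 TPM and 54.4, 52.4 and 47.5 TPM (3.00 ± 0.10), and Isg15, a ubiquitin-like modifier, at 582, 609.9 and 549.8 TPM and 96.8, 85.1 and 68.3 TPM (2.80 ± 0.10). The values of NOD and BALB did not overlap for any of these, as for nearly all called genes. Ifit1 (2.70 ± 0.12) and Ifit2 (2.41 ± 0.14) differed likewise. Irf7, the factor that amplifies type I interferon, was higher by a smaller amount (1.21 ± 0.06). The signalling factors Stat2 (-0.16 ± 0.09) and Irf9 (0.38 ± 0.08) were not called as deposited. An exception was Ifi44l, which was listed at 0 TPM in all 3 NOD libraries and at 18.0, 14.7 and 10.0 TPM in BALB, and Eif2ak2, the kinase PKR, was lower as deposited (-1.11 ± 0.12) but not under all 3 scalings.

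The promoters of 4 of these higher genes are shown because they carry the element through which interferon-activated factors are known to act. Each window runs from 250 bases before to 50 bases after the start site in RefSeq (GRCm38.p6, the C57BL/6J reference, so bases that differ in NOD or BALB are not shown), on the strand of the gene. Capitals mark matches to GAAANNGAAA or its reverse complement TTTCNNTTTC, where matches may overlap.
Isg15 (chr4:156200769-156201068, minus strand): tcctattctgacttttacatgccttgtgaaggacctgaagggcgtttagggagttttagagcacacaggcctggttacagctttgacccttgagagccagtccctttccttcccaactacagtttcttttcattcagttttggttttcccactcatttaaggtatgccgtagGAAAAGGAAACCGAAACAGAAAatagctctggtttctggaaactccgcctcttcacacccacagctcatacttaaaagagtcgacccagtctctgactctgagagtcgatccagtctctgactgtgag
Rsad2 (chr12:26456403-26456702, minus strand): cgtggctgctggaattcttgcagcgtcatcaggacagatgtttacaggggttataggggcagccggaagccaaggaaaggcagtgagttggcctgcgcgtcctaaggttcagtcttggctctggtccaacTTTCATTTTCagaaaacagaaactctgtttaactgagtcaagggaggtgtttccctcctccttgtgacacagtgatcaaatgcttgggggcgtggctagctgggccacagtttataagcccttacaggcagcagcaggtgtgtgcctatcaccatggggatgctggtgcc
Ifit3 (chr19:34583279-34583578, plus strand): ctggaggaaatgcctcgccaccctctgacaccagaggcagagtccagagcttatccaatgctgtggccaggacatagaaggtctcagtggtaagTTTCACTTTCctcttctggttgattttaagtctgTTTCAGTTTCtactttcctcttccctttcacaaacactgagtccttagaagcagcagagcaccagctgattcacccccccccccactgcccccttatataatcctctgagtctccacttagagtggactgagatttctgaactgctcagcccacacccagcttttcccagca
Cxcl10 (chr5:92348840-92349139, minus strand): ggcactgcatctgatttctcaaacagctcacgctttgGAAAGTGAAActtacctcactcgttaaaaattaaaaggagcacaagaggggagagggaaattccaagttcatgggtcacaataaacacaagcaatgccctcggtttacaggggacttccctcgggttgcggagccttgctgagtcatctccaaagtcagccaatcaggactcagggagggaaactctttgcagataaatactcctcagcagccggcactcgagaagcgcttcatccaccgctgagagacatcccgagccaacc
The Isg15 window held 3 overlapping matches that began 78, 72 and 66 bases before the start site, and the Ifit3 window held 2, at 156 and 122 bases. The windows of Rsad2 and Cxcl10 held 1 match each, at 120 and 213 bases before the start site. Among all 27025 genes with a window in the table, 3.99% held at least 1 match. Of the 17 interferon-stimulated genes called higher that had a window, 9 held a match (52.9%), and of all 30 listed genes with a window, 17 did (56.7%). The share was 8.35% of 407 genes called higher and 3.23% of 1178 genes called lower in any list or none. A match describes the letters and not a site that was shown to be bound.

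In the Ifi200 family of DNA-binding proteins, 5 of 11 genes tested were higher, all under all 3 scalings, and the other 6 were not called. Ifi205 (1.92 ± 0.11), Ifi209 (1.76 ± 0.11) and Ifi202b (1.55 ± 0.10) differed most. Ifi202b stood at 95.6, 107 and 95.9 TPM in NOD and 38.5, 32.2 and 29.7 TPM in BALB, and at a mean of 0.043 TPM in C57. The DNA sensor Aim2 was not called (-0.26 ± 0.09). Of 8 Schlafen genes tested, 4 were higher under all 3 scalings, among them Slfn4 (2.74 ± 0.13) and Slfn1 (2.48 ± 0.13). Of 16 interferon-inducible GTPases, which attack membranes around intracellular pathogens, 4 were higher and 2 lower, the same under all 3 scalings. Gbp6 (1.96 ± 0.10), Gbp5 (1.50 ± 0.11), Igtp (1.37 ± 0.11) and Gbp3 (1.33 ± 0.12) were higher. Gbp2b was lower, at 5.06, 4.93 and 5.96 TPM in NOD against 35.4, 28.7 and 26.3 TPM in BALB, as was Gbp10 (-1.63 ± 0.09). Members of these families share long stretches of sequence, so reads can be split between them. In the Ly6 and Slam families 4 of 13 were higher (3 under all 3 scalings), with Slamf7 at 1.77 ± 0.08 behind Ly6a, and in the Ms4a cluster 1 of 7 was higher, Ms4a4c, at 100.1, 90.0 and 87.5 TPM in NOD and 9.69, 6.58 and 7.36 TPM in BALB (3.41 ± 0.12).

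In MHC class II, which presents peptides to CD4 T cells, 7 of 10 genes tested were lower in NOD (4 under all 3 scalings) and the other 3 were not called, with a median difference of -1.28 as deposited and -0.91 after median-ratio scaling. H2-Ab1, the beta chain of the A molecule, was at 118, 142 and 133 TPM in NOD and 426, 472 and 471 TPM in BALB (-1.79 ± 0.07). Cd74, the invariant chain, was at 559, 628 and 582 TPM against 1789, 1831 and 1803 TPM (-1.62 ± 0.05). Ciita, the transactivator that class II genes need, was lower as deposited (-1.16 ± 0.12), with -0.87 after median-ratio scaling, and H2-Aa likewise (-1.41 ± 0.05 and -0.95). H2-Eb1, the partner chain of the E molecule, was not called (-0.93 ± 0.10). H2-Oa, a chain of the class II modulator H2-O, went the other way, with 0.70 ± 0.10 as deposited (not called), and was called higher after median-ratio scaling (1.14) and after quantile normalization. The A and E chains are highly polymorphic and differ between the strains, so their counting may differ too, which was not tested. Cd74 and Ciita lie outside the MHC.

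In the MHC class I list, 9 of 29 genes were higher and 3 lower (8 and 2 under all 3 scalings), with a median difference of 0.48 as deposited. H2-Q7 stood at 458, 497 and 455 TPM in NOD and 58.9, 71.1 and 72.0 TPM in BALB (2.79 ± 0.08). It overlaps H2-Q9 (2.73 ± 0.08), and the Q genes are near-identical, so this is best read as 1 signal. H2-T10 (2.38 ± 0.07) and H2-M2 (1.75 ± 0.08) were higher too, and so were the peptide transporter genes Tap2 (1.38 ± 0.06) and Tap1 (1.02 ± 0.05). H2-Q5 was at 0.45, 0.072 and 0 TPM in NOD against 27.2, 50.1 and 81.9 TPM in BALB (-5.41 ± 0.26), and H2-T24 was lower as well (-1.73 ± 0.15). The classical gene H2-K1 was not called (0.02 ± 0.04), nor was B2m, the shared light chain, at 11428, 10925 and 11097 TPM and 8132, 8124 and 7762 TPM (0.48 ± 0.05).

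Among Toll-like receptors and their adaptors, 2 of 22 genes were higher and 7 lower (2 and 4 under all 3 scalings). The endosomal RNA sensors Tlr8 (0.2, 0.2 and 0.54 TPM in NOD, 7.54, 5.97 and 6.19 TPM in BALB) and Tlr13 (5.65, 6.85 and 6.23 TPM, 44.0, 36.1 and 36.1 TPM) differed by -2.53 ± 0.15 and -2.45 ± 0.11. Irak4, the kinase below MyD88, was at 1.66, 2.40 and 1.43 TPM against 13.3, 13.7 and 12.9 TPM (-2.35 ± 0.12), and the LPS receptor Tlr4 was lower too (-1.56 ± 0.10). Tlr2 was not called (0.36 ± 0.07), and the LPS co-receptor Cd14 (1.04 ± 0.06) and the adaptor Ticam1 (1.08 ± 0.06) were higher. Tlr7, Tlr6 and Tlr1 were lower as deposited only, with -0.77, -0.73 and -0.66 after median-ratio scaling.

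Of 8 Fc receptor genes tested, 2 were higher and 1 lower, the same under all 3 scalings. Fcgr1, the high-affinity receptor for IgG, was at 53.8, 53.2 and 49.9 TPM in NOD and 8.07, 6.93 and 6.52 TPM in BALB (2.71 ± 0.08). Fcgr3, an activating low-affinity receptor, was at 79.4, 77.2 and 85.3 TPM and 335, 338 and 329.6 TPM (-2.04 ± 0.06). The inhibitory Fcgr2b (0.36 ± 0.06) and the shared signalling chain Fcer1g (-0.01 ± 0.04) were not called. The other higher gene was Fcrls, an Fc receptor-like gene (1.35 ± 0.09).

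Of 18 complement genes, 8 were lower in NOD (6 under all 3 scalings) and the other 10 were not called, with a median difference of -0.70. The complement receptor chains Itgam (17.6, 20.3 and 21.5 TPM in NOD, 99.5, 82.6 and 83.3 TPM in BALB), Itgax (-2.05 ± 0.07) and their shared partner Itgb2 (119, 122 and 134 TPM, 494, 439 and 432 TPM) were all lower. C1s1, a serine protease of the C1 complex, was lower too (-3.07 ± 0.15). The C1q chains, which are made by macrophages, were not called, with -0.28 ± 0.13 for C1qa, -0.07 ± 0.14 for C1qb and 0.17 ± 0.09 for C1qc.

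In the C-type lectins, 1 of 21 was higher and 9 lower (1 and 5 under all 3 scalings). Clec4a3 (-2.05 ± 0.10), Clec2i (-1.93 ± 0.09) and Clec12a (-1.81 ± 0.07) were lower, and Clec4n, which encodes dectin-2, was higher (1.29 ± 0.06). Clec7a, which encodes dectin-1, was not called (-0.91 ± 0.06). Among scavenger and dead-cell uptake receptors 3 of 28 were higher and 7 lower (3 and 4 under all 3 scalings). Axl, a receptor that recognizes dying cells through GAS6, was at 45.0, 48.2 and 45.7 TPM in NOD and 10.8, 8.79 and 8.16 TPM in BALB (2.21 ± 0.11), while its relative Mertk was lower as deposited (-1.12 ± 0.16). The bridging proteins Pros1 (-1.89 ± 0.11) and Mfge8 (-1.74 ± 0.07) and the HDL receptor Scarb1 (-1.74 ± 0.06) were lower, and Marco (1.22 ± 0.12) and Siglec1 (1.03 ± 0.12) were higher.

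Cholesterol synthesis was the list with the lowest median difference. Of 23 genes tested, 20 were lower in NOD (15 under all 3 scalings) and the other 3 were not called. The list also holds genes of sterol uptake and transport, such as Stard4, and its median was -1.54 as deposited and -1.23 after median-ratio scaling. Fdps, farnesyl diphosphate synthase, was at 12.6, 11.9 and 12.2 TPM in NOD and 85.6, 76.9 and 81.7 TPM in BALB (-2.64 ± 0.09), and Hmgcs1, HMG-CoA synthase, at 5.44, 5.54 and 4.86 TPM against 35.2, 31.2 and 33.6 TPM (-2.45 ± 0.08). The groups were apart in both genes. The squalene epoxidase Sqle differed by -2.32 ± 0.07 and the sterol carrier Stard4 by -2.51 ± 0.11. Srebf2, the factor that drives these genes, was lower as deposited (-1.03 ± 0.08) and within 2-fold after median-ratio scaling (-0.59). A few genes of fatty acid synthesis and desaturation were looked up after Scd2 had been seen, so no count is given for them. Scd1 was at 0.35, 0.24 and 0.41 TPM in NOD and 18.7, 15.2 and 16.6 TPM in BALB (-3.74 ± 0.10), and Fads2 (-3.50 ± 0.13) and Fasn (-2.18 ± 0.08) were lower under all 3 scalings, while Srebf1 had -1.24 ± 0.07 as deposited and -0.81 after median-ratio scaling.

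**Figure D4:**
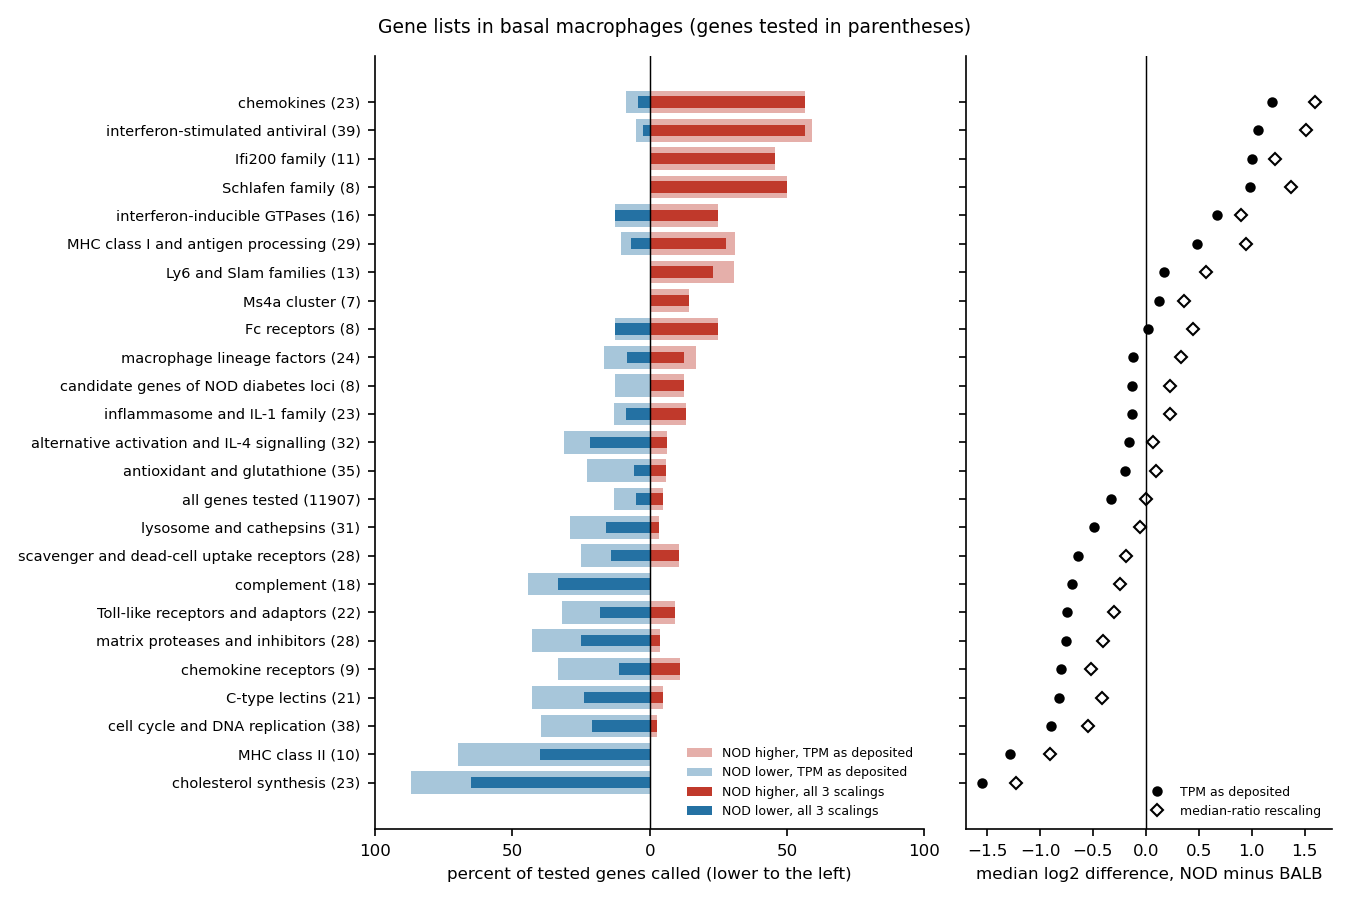
Left, share of the tested members of each gene list called higher (red, to the right) or lower (blue, to the left) in basal NOD, pale for the TPM as deposited and dark for all 3 scalings. Right, median log2 difference of each list, NOD minus BALB, as deposited (filled) and after median-ratio rescaling (open), with all 11907 genes tested as a row of their own. Chemokines (median 1.19) are at the top and cholesterol synthesis (median -1.54) at the bottom.

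The alternative activation list, which holds the genes macrophages induce with IL-4 and the parts of its receptor pathway, had 2 of 32 genes higher and 10 lower before IL-4 (2 and 7 under all 3 scalings). Arg1, the arginase of alternative activation, was at 6.21, 7.54 and 3.02 TPM in NOD and 59.7, 60.6 and 63.1 TPM in BALB (-3.31 ± 0.16). The mannose receptor Mrc1 was at 3.87, 3.87 and 3.51 TPM against 27.1, 22.9 and 23.4 TPM (-2.42 ± 0.09), the chitinase-like Chil3 at 2.92, 3.10 and 2.64 TPM against 11.8, 12.5 and 11.03 TPM (-1.72 ± 0.22), and Retnla was listed at 0 in NOD and stood at 1.27, 1.92 and 2.01 TPM in BALB. Within the signalling part, Il4ra was not called (0.26 ± 0.06). Stat6 was lower as deposited (-1.02 ± 0.06) and within 2-fold after median-ratio scaling (-0.57), as were Jak3 and Il13ra1. Myc (19.2, 19.5 and 21.97 TPM in NOD, 3.54, 3.49 and 3.29 TPM in BALB, 2.26 ± 0.11) and the transglutaminase Tgm2 (1.09 ± 0.05) were higher. Egr2 (0.60 ± 0.09), Pparg (-0.07 ± 0.08) and Irf4 (-0.01 ± 0.10) were not called.

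Among lysosomal genes, 1 of 31 was higher and 9 lower (1 and 5 under all 3 scalings). Besides Ctsk, the cathepsins Ctsl (225, 232 and 235 TPM in NOD, 1236, 1132 and 1150.3 TPM in BALB, -2.34 ± 0.05), Ctss (1447, 1489 and 1471 TPM, 4721, 4568 and 4486 TPM, -1.64 ± 0.03) and Ctse (-1.87 ± 0.12) were lower. Ctss and Ctsl cleave the invariant chain in class II compartments. Ctsh was higher (1.59 ± 0.04), Ctsb was not called (-0.06 ± 0.04), and Acp5, the tartrate-resistant phosphatase that like Ctsk marks osteoclasts, stood at 455, 462 and 496 TPM in NOD and 245, 249.7 and 244 TPM in BALB (0.93 ± 0.04, not called as deposited). Of 28 matrix proteases and related genes, 1 was higher and 12 lower (1 and 7 under all 3 scalings). The collagenase Mmp13 was higher, at 24.3, 24.6 and 26.3 TPM against 2.04, 1.78 and 1.54 TPM (3.23 ± 0.09), and Mmp8 (-2.37 ± 0.11), the coagulation genes F7 (-2.89 ± 0.06) and F13a1 (-2.71 ± 0.10), and the shedding proteases Adam10 (-1.87 ± 0.10) and Adam17 (-1.75 ± 0.08) were lower.

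Cell cycle and replication genes were lower more often than higher, as were all genes tested (13.2% lower and 4.84% higher as deposited). Of 38 tested, 1 was higher and 15 were lower (1 and 8 under all 3 scalings), and the median was -0.90 as deposited and -0.55 after median-ratio scaling. The replication licensing gene Mcm5 was at 0.75, 0.87 and 1.00 TPM in NOD and 5.26, 6.12 and 5.28 TPM in BALB (-1.81 ± 0.09), and Pcna differed by -1.47 ± 0.08. The proliferation marker Mki67 was not called (-0.24 ± 0.09), nor was Ccnb1 (-0.03 ± 0.13). The inhibitor of licensing Gmnn was lower (-1.97 ± 0.13), and Cdt1, the licensing factor it binds, was the 1 higher gene, at 48.6, 47.6 and 46.7 TPM against 11.1, 13.1 and 13.6 TPM (1.84 ± 0.08).

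In the antioxidant list, 2 of 35 genes were higher and 8 lower (2 and 2 under all 3 scalings). The counts under all 3 scalings were near the shares of all genes tested (4.79% higher, 5.2% lower). The glutathione transferases Gstm2 (25.1, 23.2 and 25.7 TPM in NOD, 0.51, 0.64 and 0.35 TPM in BALB) and Gsta4 (1.66 ± 0.15) were higher, and Nqo1 (6.58, 6.57 and 6.28 TPM, 36.8, 31.1 and 35.2 TPM, -2.24 ± 0.11) and Gstp1 (-1.77 ± 0.14) were lower. Nfe2l2, the gene of the NRF2 factor that acts on these genes, was not called (-0.47 ± 0.07).

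Among macrophage lineage factors, 4 of 24 were higher and 4 lower (3 and 2 under all 3 scalings). Cebpb was at 256, 241 and 202 TPM in NOD and 25.6, 44.5 and 60.5 TPM in BALB (2.47 ± 0.24), where BALB was the more variable strain. Klf2 was lower (-2.72 ± 0.14), Nr4a1 was higher (1.18 ± 0.13), and Spi1, which encodes the master factor PU.1, was not called (0.45 ± 0.12). Of 8 candidate genes of NOD diabetes loci that were tested, Fcgr1 was higher, as given above, and Nrp1 was lower as deposited (-1.01 ± 0.08). Slc11a1, the NRAMP1 metal transporter, was at 278, 295 and 289 TPM in NOD and 264, 249 and 257 TPM in BALB (0.16 ± 0.04, not called).

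Called genes were spread over all chromosomes. On the X chromosome, 0.571% of 350 genes tested were higher and 17.7% lower (6.0% lower under all 3 scalings), and on the autosomes the share of higher genes went from 3.33% on chromosome 3 to 6.52% on chromosome 4. The share of lower genes under all 3 scalings was above that of the X chromosome on chromosomes 3 (8.06%), 6 (7.07%) and 7 (6.47%). The longest run of neighbouring tested genes called in 1 direction held 7 genes, all lower and all under all 3 scalings, on chromosome 7 (3836815 to 4063204, mm10). It was made of the paired immunoglobulin-like receptors Pira1, Pira7, Pira4, Pira11 and Gm14548, which overlap each other in the table and share sequence, with Lilra6 and Lair1. Pira4 was at 1.05, 1.198 and 1.22 TPM in NOD and 13.7, 11.1 and 11.6 TPM in BALB, and Lair1, an inhibitory collagen receptor, at 3.04, 2.21 and 2.60 TPM and 16.1, 13.5 and 13.9 TPM. A second run of 6 lower genes lay on chromosome 7 (51997161 to 56019573; Svip, Tubgcp5, Cyfip1, Nipa2, A230056P14Rik, Nipa1), of which 2 held under all 3 scalings.

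The 5 runs of 5 genes were all kept, since they tie in length. The only one that was higher lay on chromosome 11 (80482127 to 82103399) and held Myo1d, Tmem98, Ccl2, Ccl7 and Ccl12, each called under all 3 scalings. The non-chemokine neighbours Myo1d (4.19, 4.71 and 5.56 TPM in NOD, 0.67, 0.56 and 0.6 TPM in BALB, 1.85 ± 0.10) and Tmem98 (1.77 ± 0.13) were higher alongside the CCR2 ligands. The lower runs were Cers6, Nostrin, Spc25, Dhrs9 and Bbs5 on chromosome 2, Rpl34, Rpl34-ps1, Hadh, Sgms2 and Papss1 on chromosome 3, the C1r and C1s genes C1rl, C1ra, C1s1 and C1s2 with Lpcat3 on chromosome 6, and Atp7a, Tlr13, Pgk1, Taf9b and Cysltr1 on the X chromosome. Between 3 and 4 genes of each lower run were called under all 3 scalings. Nostrin was at 6.16, 7.46 and 7.15 TPM against 27.6, 26.1 and 26.6 TPM, and Cysltr1, a leukotriene receptor, at 0.38, 0.36 and 0.44 TPM against 9.95, 9.11 and 9.48 TPM.

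Some genes were listed at 0 TPM in 1 strain. In 9 genes all 3 NOD libraries were at 0 and every BALB library at 1 TPM or more, and in 5 genes it was the reverse. The highest were Ifi44l and Mamdc2 (6.88, 6.71 and 6.58 TPM in BALB), both at 0 in NOD. Of the genes at 0 in BALB, Zfp33b, a zinc finger gene, was at 4.25, 2.89 and 4.03 TPM in NOD, G530011O06Rik at 2.67, 2.59 and 2.91 TPM and Fam110c at 1.95, 2.00 and 1.90 TPM. The microRNA entries Mir6958, Mir7067, Mir5113, Mir6977 and Mir5116 also met this criterion, and each overlaps a longer gene on the same strand. Read counts per gene are not given, so no limit can be set on a value of 0.

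Levels in basal C57 macrophages are set beside both strains as a description. Over the 570 genes higher under all 3 scalings, the C57 mean was nearer to BALB in 458 and nearer to NOD in 112, and over the 619 lower genes it was nearer to BALB in 501 and to NOD in 118. For comparison, it was nearer to NOD in 27.4% of all genes tested. Nearness was taken from the TPM as deposited only, also for genes called under all 3 scalings. The median ratio used for rescaling was 0.785 to 0.821 in basal NOD libraries, 1.08 to 1.17 in BALB and 1.03 to 1.10 in C57. C57 thus lay on the BALB side of the shift between scalings, and the part of scaling in these counts was not tested. Cxcl10 (9.41 TPM in C57, mean) and Mt2 (255 TPM) lay closer to BALB. Gdf15 (93.3 TPM) lay between the strains and nearer to NOD on the log2 scale, and Ly6a (187 TPM) and Gstm2 (50.6 TPM) above both strains. Among the lower genes, Ctsk was at 394 TPM in C57 and Tlr13 at 48.8 TPM, near BALB, while Rpl28 (2.05 TPM), Gbp2b (0.13 TPM) and Pira1 (1.50 TPM) were low in C57 as in NOD.

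The same strains were compared after IL-4 (20 ng/ml for 24 hours) in 6 other libraries. Both comparisons came from the same model, which shares its gene filter and its estimate of the spread, so they are not fully independent. The labels also do not say whether basal and IL-4 libraries of a strain came from the same mice. The overlap is therefore not a replication in separate animals. NOD was higher in 615 genes (5.17%) and lower in 789 (6.63%). Of the 576 genes higher at the basal state, 440 were again called higher, which is 76.4% of the basal and 71.5% of the IL-4 list. Of the 1568 lower genes, 673 were again called lower, 42.9% of the basal and 85.3% of the IL-4 list. After median-ratio scaling the shared shares were 60.3% and 86.3% for higher genes and 68.2% and 70.1% for lower genes. A call in the opposite direction was made for 2 of the higher genes and 1 of the lower genes. Of the 570 and 619 genes called under all 3 scalings, 436 and 489 were called the same way after IL-4. The differences of Gdf15 (5.67 ± 0.24), Il1rn (3.57 ± 0.07), Isg15 (3.37 ± 0.10), Ctsk (-6.80 ± 0.09), Fdps (-2.60 ± 0.09) and Cd74 (-1.53 ± 0.05) were called after IL-4 too. In the lists, 31 of 39 interferon-stimulated antiviral genes were higher and 1 lower, 11 of 23 chemokines higher and 3 lower, 21 of 23 cholesterol synthesis genes lower, and 8 of 10 MHC class II genes lower.

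**Figure D5:**
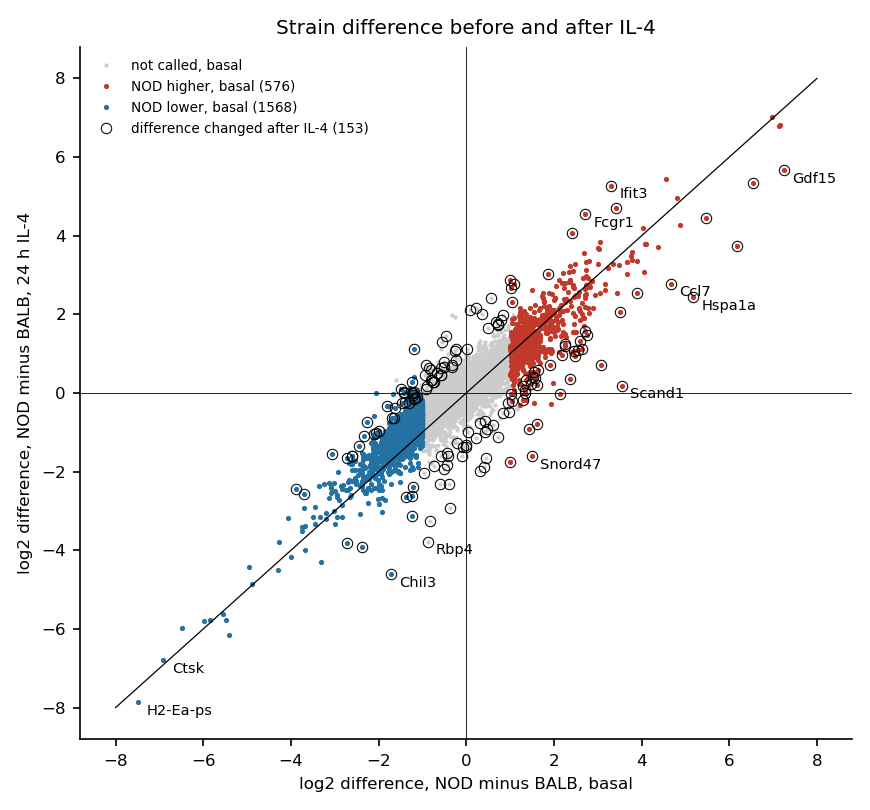
Log2 difference, NOD minus BALB, of the 11907 genes tested in basal libraries (horizontal) and in libraries after 24 h of IL-4 (vertical), as deposited. Red and blue points are the 576 and 1568 genes called higher and lower at the basal state, circles are the 153 genes whose difference changed after IL-4, and the line marks an equal difference. Most coloured points lie on the same side of 0 on both axes.

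Whether the strain difference itself changed with IL-4 was tested as an interaction in the same model, without pairing basal and IL-4 libraries. The difference, NOD minus BALB, was raised after IL-4 in 75 genes (0.63%) and reduced in 78 (0.655%). Raised and reduced describe the signed value, so for a gene lower in NOD a reduced difference is a wider gap. Of the 576 genes higher at the basal state, 40 had a reduced difference and 9 a raised one. Of the 1568 lower genes, 31 had a raised difference, toward BALB, and 7 a reduced one, away from BALB. The same basal libraries set the basal calls and enter the interaction, so a narrower gap among called genes was favoured in advance. No conclusion on IL-4 is drawn from these 4 counts. Over all genes tested, the median change was 0.23 as deposited and -0.025 after median-ratio scaling. Ifit3 had a basal difference of 3.30 and one of 5.27 after IL-4, a change of 1.97 ± 0.20 (adjusted p = 2.2e-07, limma with Benjamini-Hochberg adjustment). Fcgr1 went from 2.71 to 4.54. Rbp4, a retinol carrier, was at 0.12, 0.37 and 0 TPM in NOD and 1.47, 0.94 and 0.99 TPM in BALB at the basal state, and after IL-4 was at a mean of 3.46 TPM in NOD and 60.3 TPM in BALB, a change of -2.90 ± 0.16. Chil3 went from -1.72 to -4.60. The HSP70 genes had smaller differences after IL-4, with 2.44 for Hspa1a and 3.73 for Hspa1b. The chemokine Ccl7 went from 4.67 to 2.77. After median-ratio scaling 27 differences were raised and 163 reduced, so the balance of this count depended on the scaling as the basal count did.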

How the data were processed

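RNA-seq of basal BMDMs of NOD and BALB mice (3 libraries each) was analysed from the authors' table of 5 strains (29 libraries, 24537 genes). According to the study's methods, the authors aligned reads to strain genomes (STAR 2.5.3), brought the alignments to mm10 coordinates (MMARGE 1.0) and quantified genes as TPM (HOMER 4.11.1). The deposited values are TPM, so no count test was run, and no counting interval can be given. Precision was taken from the replicates, and the depth is known only as total tags per library. The table's fold changes and p-values between IL-4 and basal cells, made by the authors with DESeq2, were not used.

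Differences were tested with limma 3.58.1 in R 4.3.3 on log2(TPM + 1). A single model with a mean for each of the 10 groups of 29 libraries was moderated by empirical Bayes with a trend. The 11907 genes that reached 1 TPM or more in 2 or more libraries entered the test, with Benjamini-Hochberg adjustment over all of them. The code was tested on simulated differences of known size. Alternatives were other pseudocounts, filters and scalings, a model of the compared groups alone, a robust prior, a replicate block and leaving out each replicate, and centring by length and the count under all 3 scalings were added after seeing the data. The replicate numbers did not pair the basal libraries, since the deviations of same-numbered NOD and BALB libraries correlated by -0.058 to 0.0074.

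Genes were named by a rule. It took the 12 largest differences in each direction among called genes whose NOD and BALB libraries did not overlap. The higher strain of these also needed a mean of at least 5 TPM. The rule further took up to 5 called members of each list and genes at 0 in 1 strain. The longest runs of neighbours, the 3 largest interactions in each direction, and markers completed it. Further list members were named for their known roles, with their values seen, and genes outside the lists are marked as chosen after seeing values. The gene lists and the comparison were chosen with earlier results of these data known. Some genes are not reported here.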

Additional observations from a re-analysis of the deposited data

Results flagged for a closer look

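The strain difference at the basal state and that after IL-4 differed in 75 genes in which NOD minus BALB was raised and in 78 in which it was reduced, by the interaction test of the same limma model, and this test is what drew attention to them. The 3 largest reductions of this signed value among genes with at least 5 TPM in 1 of the 4 groups were in Scand1, Snord47 and Rbp4. In Rbp4, which was lower in NOD at the basal state, the gap between the strains widened. Scand1 changed by -3.36 ± 1.05, from 60.9, 26.1 and 9.55 TPM in NOD and 0.2, 1.41 and 2.78 TPM in BALB at the basal state, where the NOD libraries themselves ranged widely. Snord47 changed by -3.11 ± 0.85, Rbp4 by -2.90 ± 0.16. The 3 largest rises were in Mir7115 (2.02 ± 0.67), Ifit3 (1.97 ± 0.20) and Mir6363 (1.91 ± 0.57). Snord47, Mir7115 and Mir6363 are short non-coding RNA genes, whose TPM rest on very short features.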

How the results depend on the processing

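The counts depended on the scaling and on the pseudocount. Higher and lower genes at the basal state numbered 576 and 1568 as deposited, 1112 and 683 after median-ratio rescaling, 920 and 736 after quantile normalization, and 969 and 685 after length-decile centring (chosen after seeing the data), and 619 lower genes held under all 3 scalings. After IL-4, no scaling moved either count by over 1.5 times. Raised and reduced differences after IL-4 (75 and 78) became 27 and 163, 35 and 134, and 36 and 120 under the same scalings, in that order. A pseudocount of 5 TPM gave 341 higher and 529 lower genes at the basal state, 328 and 333 after IL-4, and 24 raised and 43 reduced differences. A pseudocount of 0.1 TPM gave 2659 lower genes at the basal state, 1401 lower after IL-4, and 369 raised and 126 reduced differences. Counts in the gene lists depended on the pseudocount too, and 14 of them moved at 5 TPM and 11 at 0.1 TPM. At 5 TPM, the lower count went from 7 to 3 for Toll-like receptors and from 3 to 0 for chemokine receptors. Without each replicate in turn, the counts went from 571 to 592 (higher) and 1421 to 1656 (lower) at the basal state, 606 to 645 and 761 to 838 after IL-4, and 70 to 112 and 72 to 92 for raised and reduced differences.

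The labels give both strains the same replicate numbers. A replicate block gave 576 higher and 1567 lower genes at the basal state and 615 and 790 after IL-4. The interaction counts became 76 and 79, so the block changed no count by over 1.5 times. Same-numbered basal libraries of NOD and BALB did not deviate together. Deviations of same-numbered basal and IL-4 libraries correlated by 0.33, 0.15 and 0.089 in BALB and by -0.075, -0.0014 and -0.026 in NOD. Differently numbered BALB ones went from -0.30 to 0.21. After IL-4, same-numbered libraries of NOD and BALB correlated by 0.25, 0.18 and 0.031, and differently numbered ones by -0.23 to 0.085. What same-numbered libraries share was not tested. No named gene that was called changed its sign under any alternative run. Of 220 genes eligible to be named, 191 were called, and 124 of these kept their call under every alternative. The cause of the shift between scalings was not tested. Depth limits genes of low TPM, for which no counts are given.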
